A study of Mus musculus with 8 samples.

Results

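The betaine-methionine cycle was followed through 10 genes, Bhmt, Bhmt2, Gnmt, Mat1a, Ahcy, Pemt, Mtr, Chdh, Dmgdh and Sardh. They were taken by name from a table of 21358 genes measured by RNA sequencing of mouse liver, and all 10 had a row. Livers came from 2 groups with 4 libraries each, both after 22 weeks of fasting every other day, in what the series title calls a model of metabolic dysfunction. The groups are named feeding glucose (FG, libraries 93, 94, 95 and 96) and starvation glucose (SG, libraries 101, 103, 104 and 105), so both took glucose and differed in the metabolic state in which they took it. Strain, age, sex, diet, glucose dose and the hours between the last food or glucose and collection are not given in the sources used here. Effects of those hours and of the named state cannot be told apart. The series text counts 4 mice per group, but no label ties a library to an animal, so the p-values measure only the spread between libraries.

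Cells of the liver make S-adenosylmethionine (AdoMet) from methionine, spend it as the methyl donor, and recover methionine from the homocysteine that remains. The methyl group for that recovery comes either from methylfolate, through methionine synthase, or from betaine, through betaine-homocysteine methyltransferase, an enzyme for which liver and kidney are the main sites. Betaine is itself made by oxidation of choline, and its spent form, dimethylglycine, is stripped to sarcosine and then glycine in mitochondria.

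The comparison asks how liver transcripts of the cycle differed with the state in which glucose was taken. In SG, Bhmt rose 13.5-fold in mean FPKM, the fragment count scaled by transcript length and library depth, and Gnmt, Ahcy, Dmgdh, Sardh and Bhmt2 rose between 1.56-fold and 2.13-fold. Mat1a, Pemt and Chdh did not pass the test, and Mtr, the gene of methionine synthase, lay below the level at which genes were tested. The test took in genes that reached 1 FPKM in 4 or more of the 8 libraries. It was called at a limma p below 0.05 after Benjamini-Hochberg adjustment over the 9867 genes tested. By that rule 6 of the 9 tested members were higher in SG, against 3.73% of all tested genes, and 0 were lower, against 15.6%. Below 0 there was no member at an unadjusted p under 0.05 either, and voom on recovered fragments gave the same 6 and 0. After median-ratio scaling between libraries the same 6 were called higher and again 0 lower, against 5.52% and 5.06% of all tested genes. All 4 SG libraries lay above all 4 FG libraries for the same 6 of the 10 members, against 4.35% of tested genes. Differences are SG less FG in log2(FPKM + 1), given with limma's standard error (SE), and on this scale the change of a weakly expressed gene is understated.

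Of the 6 called members, 3 lie side by side on chromosome 13 (GRCm38.p6, RefSeq). Bhmt is at chr13:93616891-93637758 on the minus strand, Bhmt2 at chr13:93656097-93674302 on the minus strand and Dmgdh at chr13:93674436-93752823 on the plus strand. Bhmt2 and Dmgdh start head to head, with 133 bases between their annotated starts. That stretch is shown because it lies upstream of both genes, and both rose.
Bhmt2 to Dmgdh, chr13:93674303-93674435, plus strand: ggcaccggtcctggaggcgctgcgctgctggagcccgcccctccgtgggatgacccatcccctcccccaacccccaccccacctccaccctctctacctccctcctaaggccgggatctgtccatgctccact
It holds 69.9% G and C and 6 CpG pairs, and it contains none of the 6 motifs searched. These were the TATA box TATAAA, the E-box CACGTG, the forkhead core GTAAACA, the nuclear receptor core AGGTCA, the CEBP-type site TTGCNNAA and the core TGACG of the cyclic AMP response element, each read on both strands.

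The other members are scattered. Sardh is at chr2:27188393-27248332 and Ahcy at chr2:155059310-155074497, both on the minus strand. Pemt lies at chr11:59970614-60046561, Gnmt at chr17:46725664-46729211 and Mtr at chr13:12181331-12258199, all on the minus strand and the last far from Bhmt. Chdh at chr14:30008901-30040468 and Mat1a at chr14:41105012-41124428 are on the plus strand.

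The same motifs were looked up in the 250 bases before each transcript start listed by RefSeq, which gave 12 windows for 9 members. A listed start need not be the outer end of the gene: 5 of these windows lie wholly inside the gene (Sardh, both of Pemt and 2 of the 3 of Chdh), 3 partly (Gnmt, Mtr and the other of Chdh) and 4 outside it. The letters AGGTCA, a core that many nuclear receptors can bind, occurred in the windows of Bhmt, Gnmt, Ahcy and Sardh, and 14.0% of all 32851 windows hold them. Bhmt had 3 copies, a number reached or passed by 0.131% of windows. TGACG occurred in Mtr, against 17.8% of all windows, and the other 4 motifs occurred in none of these windows. The 5 copies of Bhmt, Gnmt and Ahcy, all outside the gene, are shown with 12 bases on either side, read on the strand of the match, with the matched letters in capitals.
Bhmt, chr13:93637975-93638004, minus strand: tgtgccagatgtAGGTCAtgcagtttacac
Bhmt, chr13:93637813-93637842, minus strand: gaccccagatcaAGGTCAgaggcctgctat
Bhmt, chr13:93637788-93637817, minus strand: gctattggacaaAGGTCAgtgtgcagacga
Gnmt, chr17:46729329-46729358, plus strand: gcttagtaagacAGGTCAgataggactcgc
Ahcy, chr2:155074685-155074714, plus strand: ccagtgaatcagAGGTCAaaacaaggcaga
The first of these letters lie 234, 72 and 47 bases before the Bhmt start in window coordinates. GENCODE vM21 puts the Bhmt start 203 bases further upstream, so the nearer copies lie inside its first exon in that annotation. A match in letters is a description of the sequence, and binding was not measured.

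**Figure D1:**
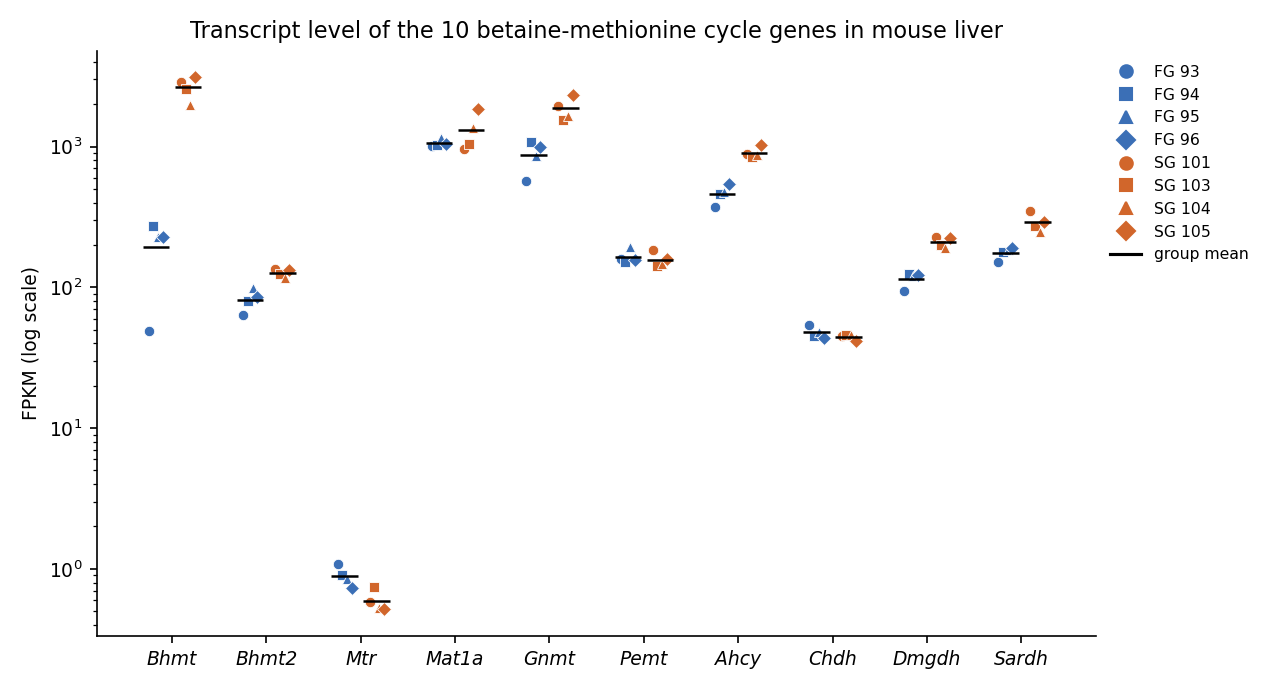
FPKM (log axis) of the 10 genes in each library, with FG in blue, SG in orange, 1 symbol per library and a bar at each group mean. Bhmt goes from below Mat1a, Gnmt and Ahcy in FG to the highest mean in SG, while Mtr stays near or below 1 FPKM in all 8 libraries.

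Bhmt encodes betaine-homocysteine methyltransferase, which moves a methyl group from betaine to homocysteine. Its FPKM was 48.9, 275, 227 and 228 in FG libraries 93, 94, 95 and 96. In SG libraries 101, 103, 104 and 105 it was 2881, 2573, 1984 and 3101. The groups did not overlap, the lowest SG library standing well above the highest FG library, and FG 93 stood well below the other FG libraries. The mean went from 195 ± 99.6 (SD, n = 4) to 2635 ± 485 (SD, n = 4), a log2 difference of 3.99 (SE 0.48, 95% interval 2.91 to 5.07) with a limma adjusted p of 0.00207. The exact two-sided permutation p was 0.0286, the smallest that 70 assignments of 4 and 4 libraries allow, and it was the same for each of the 6 called members. Without FG 93 the log2 difference was 3.42, with a limma adjusted p of 6.55e-05. Among the 368 genes called higher in SG, Bhmt had the rank 3 by size of the difference in log2(FPKM + 1). That rank belongs to this scale: Enho, weakly expressed, rose 17.7-fold in mean FPKM with a log2 difference of only 2.81.

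The fragments behind these values numbered 3875 to 22188 per library in FG and 154353 to 248723 in SG, so counting error was small beside the spread between libraries. Bhmt took 0.0101% to 0.0569% of a library's fragments in FG and 0.411% to 0.642% in SG. Ranked by FPKM it moved from places 198 to 1119 in FG to places 20 to 29 in SG. In bulk RNA such a change cannot be divided between more cells with the transcript and more transcript per cell. The annotation holds near-identical copies: 29.8% of the 150-base windows of the Bhmt transcript, the read length used, occur unchanged in Bhmt-ps1 or Gm5096, which are not analysed here. The labels do not say how the counting treated such reads.

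Bhmt2 encodes the related enzyme that uses S-methylmethionine rather than betaine as methyl donor. FPKM was 63.1, 79.7, 98.4 and 85.4 in FG, in the library order above, and 135, 124, 117 and 133 in SG. The groups did not overlap, and FG 93 was again the lowest library. In the fit Bhmt2 differed by 0.65 (SE 0.13) with a limma adjusted p of 0.0128, and without FG 93 by 0.53 with 0.0261. Aligned transcripts of Bhmt and Bhmt2 were 79.0% identical over 1072 bases with a longest identical run of 59 bases, and no 150-base window of Bhmt2 occurred in another gene.

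Bhmt differed more between the groups than its paralog did. The ratio of Bhmt to Bhmt2 in FPKM ran from 0.775 to 3.45 in FG and from 17.0 to 23.4 in SG. On the log2 scale the ratio differed by 3.35 between groups (n = 4 and 4, exact two-sided permutation p = 0.0286, Benjamini-Hochberg adjusted over 4 ratios 0.0381). In FG 93 alone Bhmt was below Bhmt2. A ratio within a library does not depend on scaling between libraries.

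Mtr encodes methionine synthase, the cobalamin enzyme of the folate route. FPKM was 1.08, 0.90, 0.846 and 0.733 in FG and 0.582, 0.742, 0.531 and 0.518 in SG, from 195 to 403 fragments per library. FG 93 was the highest library here and SG 103 overlapped the FG range. The plain log2(FPKM + 1) difference was -0.245, and the exact two-sided permutation p was 0.0571 (n = 4 and 4). As Mtr was below the filter, no adjusted p belongs to it in the fit. The ratio of Bhmt to Mtr ran from 45.4 to 310 in FG and from 3467 to 5986 in SG, a log2 difference of 4.59 (n = 4 and 4, exact permutation p = 0.0286, adjusted over 4 ratios 0.0381). The low end in FG was FG 93, the other FG libraries lay from 268 to 310, and without FG 93 the log2 difference was 3.91.

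**Figure D2:**
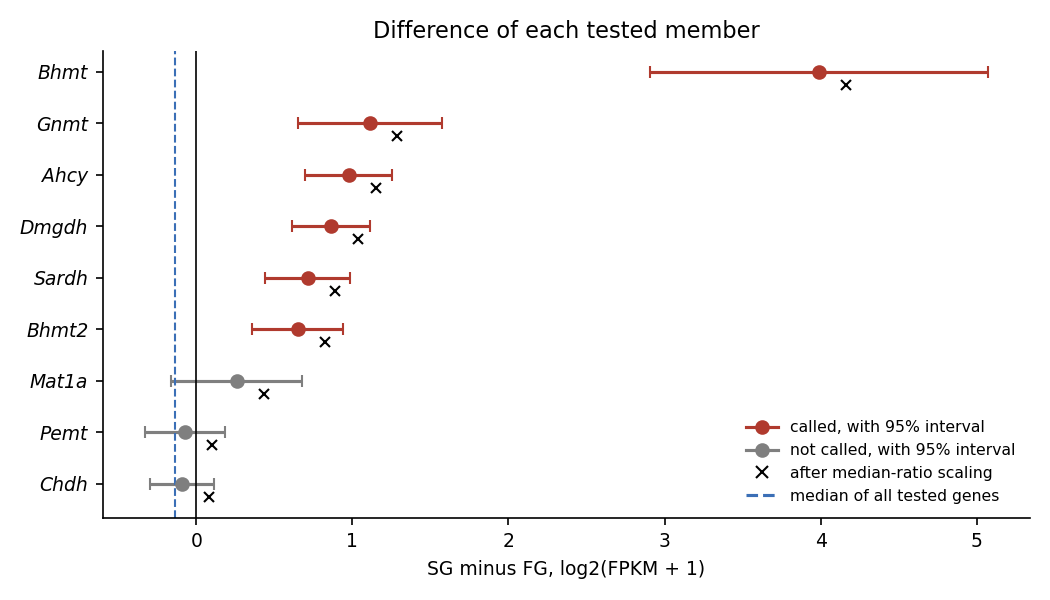
SG minus FG difference in log2(FPKM + 1) of the 9 tested members with limma's 95% interval (circles, red where called), the same after median-ratio scaling (crosses) and the median of all tested genes (dashed line, -0.14). The intervals of Bhmt, Gnmt, Ahcy, Dmgdh, Sardh and Bhmt2 lie above 0, and those of Mat1a, Pemt and Chdh include 0.

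Mat1a encodes the liver's own methionine adenosyltransferase, which makes AdoMet. It held 1008, 1032, 1153 and 1035 FPKM in FG and 965, 1045, 1360 and 1853 in SG. SG 101 fell below every FG library while SG 104 and SG 105 stood above all of them. The log2 difference was 0.26 (95% interval -0.16 to 0.68) with a limma adjusted p of 0.355. A rise of up to 1.60-fold therefore lies within the interval, and so does a fall. Mat2a, the form used mainly outside the adult hepatocyte, was at 34.5 ± 1.70 and 31.0 ± 5.63 FPKM (SD, n = 4 each), with a limma adjusted p of 0.39. The ratio of Mat1a to Mat2a overlapped between groups, at 28.4 to 35.6 in FG and 28.3 to 59.9 in SG (exact two-sided permutation p = 0.143, n = 4 and 4). Without SG 103 that ratio no longer overlapped, with a log2 difference of 0.61 and an exact permutation p of 0.0286, the smallest possible. SG 103 was the only SG library not above FG, so leaving it out fixes that p, which was not adjusted. With all libraries the exact p adjusted over 4 ratios was 0.143.

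Gnmt encodes glycine N-methyltransferase, which spends AdoMet on glycine to give sarcosine and is an abundant liver protein. FPKM was 572, 1079, 860 and 998 in FG and 1949, 1556, 1652 and 2305 in SG. No SG library came down to the FG range, and FG 93 was the lowest of all 8. The means were 877 ± 223 and 1865 ± 338 (SD, n = 4 each), with a log2 difference of 1.11 (SE 0.21) and a limma adjusted p of 0.00956. Without FG 93 the difference was 0.92, with a limma adjusted p of 0.0163.

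Pemt encodes the enzyme that methylates phosphatidylethanolamine to phosphatidylcholine, the other large hepatic use of AdoMet. It was measured at 160, 152, 193 and 156 FPKM in FG and at 185, 141, 146 and 158 in SG. The groups lay on top of each other. The log2 difference was -0.07 (95% interval -0.33 to 0.19), with a limma adjusted p of 0.688, and its sign turned under median-ratio and trimmed-mean scaling. The ratio of Gnmt to Pemt was 3.57 to 7.11 in FG and 10.5 to 14.6 in SG, which did not overlap. It differed by 1.18 on the log2 scale (n = 4 and 4, exact permutation p = 0.0286, adjusted over 4 ratios 0.0381).

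Ahcy encodes S-adenosylhomocysteine hydrolase, which releases homocysteine from spent AdoMet. Libraries in FG held 370, 460, 474 and 542 FPKM, and those in SG held 878, 839, 875 and 1026. The SG values were close to one another and all well above FG. Ahcy differed by 0.98 on the log2 scale (SE 0.12) with a limma adjusted p of 0.00243. Of the 150-base windows of the Ahcy transcript 67.3% occur unchanged in Gm4737 or Gm9826, intronless copies on other chromosomes, so reads could be split between them. Gm4737 itself read 87.5 to 114 FPKM in FG and 199 to 254 in SG (log2 difference 1.04, limma adjusted p = 0.00138). The ratio of Ahcy to Gm4737 was nearly constant, at 4.24 to 4.75 in FG and 4.04 to 4.26 in SG. The Ahcy level is uncertain to that extent. Both rows gave the same direction, but shared reads alone could do that, so Gm4737 is no separate support for Ahcy.

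Chdh encodes choline dehydrogenase, which begins the oxidation of choline to betaine. It was at 54.4, 45.1, 48.5 and 43.3 FPKM in FG and 45.3, 46.1, 45.9 and 41.5 in SG. The log2 difference was -0.09 (95% interval -0.30 to 0.11), with a limma adjusted p of 0.506. The groups overlapped, and the sign turned under median-ratio, trimmed-mean and quantile scaling. A rise of the size seen in Dmgdh or Sardh lies outside that interval.

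Dmgdh encodes dimethylglycine dehydrogenase, which takes the first methyl group off the product of the Bhmt reaction. FPKM was 94.1, 124, 121 and 123 in FG and 227, 201, 189 and 223 in SG. Apart from FG 93, which lay lower, the FG libraries were almost equal, and every SG library was higher. In log2(FPKM + 1) the groups differed by 0.86 (SE 0.11) with a limma adjusted p of 0.00261. The exons of Dmgdh overlap those of the antisense gene AW495222, which reached at most 0.644 FPKM in any library.

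Sardh encodes sarcosine dehydrogenase, which acts on the next intermediate and also on the sarcosine that Gnmt makes. FPKM was 150, 179, 184 and 189 in FG and 350, 273, 249 and 289 in SG. The groups did not overlap, SG 101 being the highest and FG 93 the lowest. The log2 difference was 0.71 (SE 0.12) with a limma adjusted p of 0.0073. Exons of Bhmt and Sardh also overlap annotated antisense genes, and those of Chdh overlap Cacna1d, listed at no more than 0.0897 FPKM. The labels do not say whether counts were strand-specific.

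**Figure D3:**
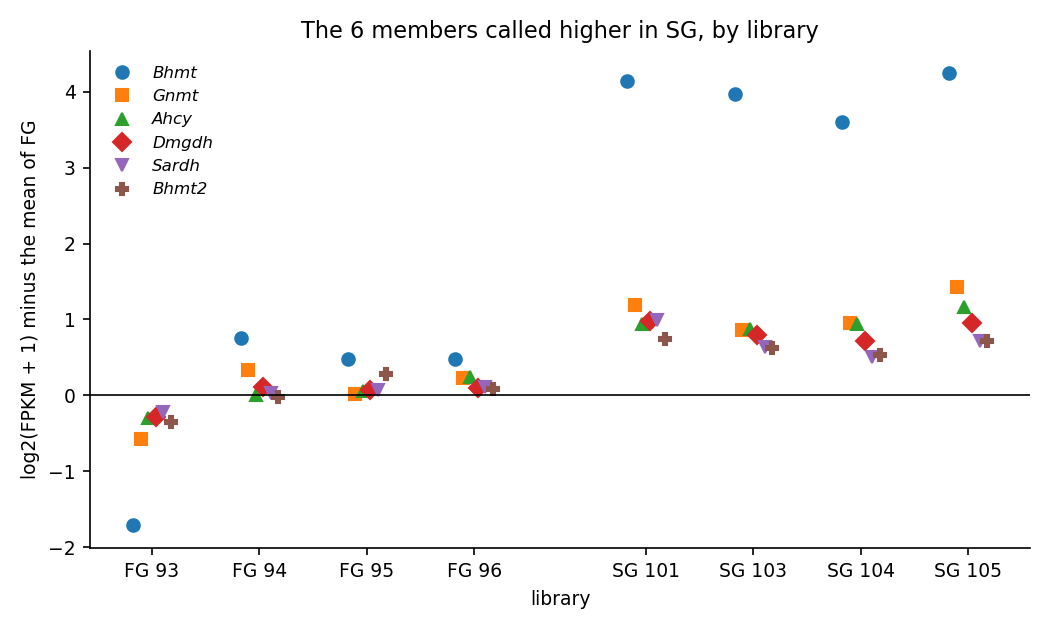
log2(FPKM + 1) of the 6 called members in each library, less the mean of the 4 FG libraries for that gene. All 6 symbols lie below 0 in FG 93 and well above 0 in each SG library, with Bhmt farthest from the others in FG 93 and in SG.

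The called members shared their low library. FG 93 was the lowest of the 4 FG libraries for all 6 of them. Over all 9867 tested genes it was the lowest FG library for 14.3%, and over the 368 genes called higher in SG for 44.0%. In SG the lowest library was SG 104 for 4 of the 6 and SG 103 for the other 2. Leaving out FG 93 kept all 6 calls, and so did leaving out each of the other 7 libraries in turn. The largest limma adjusted p among these fits was 0.0351, for Bhmt2.

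Comparing levels between genes per kilobase, the order in FG by median was Mat1a, Gnmt, Ahcy, Bhmt, Sardh, Pemt, Dmgdh, Bhmt2, Chdh and Mtr. Neighbours whose libraries overlapped were Mat1a and Gnmt, Bhmt and Sardh, Sardh and Pemt, and Dmgdh and Bhmt2. In SG the order became Bhmt, Gnmt, Mat1a, Ahcy, Sardh, Dmgdh, Pemt, Bhmt2, Chdh and Mtr. There the libraries of Bhmt overlapped those of Gnmt, those of Gnmt overlapped Mat1a and those of Mat1a overlapped Ahcy. Bhmt thus went from the fourth to the first median. Although these SG ranges overlapped, in each SG library Bhmt stood above Gnmt, Gnmt above Mat1a and Mat1a above Ahcy. Of the overlapping neighbours in FG, only Dmgdh and Bhmt2 kept the same order in every library. The median log2 difference of the 9 tested members was 0.71, beside -0.14 over all tested genes. Relative to that shift of all genes the median of the members was 0.85.

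The genes next to the chromosome 13 group did not pass the test. Jmy, a regulator of actin assembly on one side of Bhmt, differed by 0.13 (limma adjusted p = 0.59). Arsb, the lysosomal arylsulfatase beyond Dmgdh, differed by -0.26 (limma adjusted p = 0.109), and was called lower without SG 101 (0.0464) and with library weights. Homer1 was below the filter, at 0.248 to 0.603 FPKM. The gap from Jmy to Bhmt is 117082 bases, from Bhmt to Bhmt2 18338 bases and from Dmgdh to Arsb 18855 bases.

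Other genes that feed the cycle or draw on it were read from 8 lists with 70 genes in all, of which 68 had a row and 61 were tested. In SG 8 of the 61 were higher and 9 lower. Those are 13.1% and 14.8% of them, beside the 3.73% and 15.6% of all tested genes. After median-ratio scaling the counts were 11 and 6 of the 61, beside 5.52% and 5.06% of all tested genes. The median log2 difference of the 61 was -0.05, beside -0.14 over all tested genes. The linked genes were thus called in both directions, with the lower share in the main fit near that of all tested genes. Of the 8 lists 2 had more than 2 calls one way in the main fit. Counts of the separate lists are to be read beside the same shares of all tested genes, and each list is small.

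In choline and betaine supply 3 of 14 tested genes rose and 1 fell, or 5 and 1 after median-ratio scaling. Slc6a12, the betaine and GABA transporter, rose from 16.4 ± 1.69 to 25.4 ± 3.73 FPKM (SD, n = 4 each, limma adjusted p = 0.013), and this call held without each library in turn. Slc25a48, a mitochondrial choline carrier, went from 1.93 to 3.41 FPKM (limma adjusted p = 0.0332). Gpcpd1, which splits glycerophosphocholine, went from 33.8 to 60.1 FPKM (limma adjusted p = 0.0374). The Slc25a48 call was lost on leaving out FG 93, FG 94, FG 95, SG 103 or SG 104. That of Gpcpd1 was lost on leaving out any library but FG 94 and SG 101. Aldh7a1, able to oxidize betaine aldehyde, was at 152 ± 4.71 and 162 ± 12.3 FPKM with a limma adjusted p of 0.47. Aldh9a1, another aldehyde dehydrogenase able to do so, was at 81.4 ± 9.63 and 103 ± 11.3 FPKM with a limma adjusted p of 0.0615. It was called higher in SG after median-ratio scaling (limma adjusted p = 0.0209), under 4 other alternatives and without FG 95 (0.0418). Chka, the choline kinase that draws choline toward phosphatidylcholine, was at 1.19 and 2.23 FPKM (limma adjusted p = 0.0981, and 0.0333 without SG 101).

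Among the partners of dimethylglycine and sarcosine oxidation 2 of 7 rose and 0 fell (also 0 at an unadjusted limma p below 0.05, and 0 by voom). They were Pipox, a peroxisomal sarcosine oxidase, from 135 to 179 FPKM (limma adjusted p = 0.022), and Etfb, a subunit of the flavoprotein that takes electrons from Dmgdh and Sardh, from 241 to 312 FPKM (0.0216). The Pipox call was lost without FG 93, SG 103 or SG 104, and the Etfb call without FG 93, FG 94, FG 96 or SG 104. Both differences, 0.41 and 0.37 on the log2 scale, were smaller than those of Dmgdh and Sardh in value, and the contrast between them was not tested.

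For methionine synthase, 0 of 7 tested genes of cobalamin and methylfolate supply rose (also 0 at an unadjusted limma p below 0.05, and 0 by voom) and 1 fell. With 3.73% of all tested genes called higher and 15.6% lower, such counts from 7 genes show nothing particular to this list. Tcn2, which carries cobalamin in plasma, went from 56.7 to 43.9 FPKM with a limma adjusted p of 0.0486. That call was lost after median-ratio scaling (0.306), and without any library other than SG 101. Mtrr, the reductase that keeps methionine synthase active, was at 2.15 and 1.95 FPKM (limma adjusted p = 0.599).

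A list of AdoMet synthesis outside Mat1a and of S-adenosylhomocysteine removal, with relatives of Ahcy, had 5 tested genes. The relatives, Ahcyl1 and Ahcyl2, were listed by kinship, and their activity was not measured. Of the 5 genes 0 passed in either direction by limma or by voom. Before adjustment 1 of them had a limma p below 0.05. It was Ahcyl2, at 2.97 and 2.30 FPKM, with a limma adjusted p of 0.0903, and 0.0396 with library weights. Ahcyl1, a relative of Ahcy like Ahcyl2, was at 27.3 and 31.1 FPKM with a limma adjusted p of 0.246, against 0.0493 with library weights and 0.0439 without SG 101. Homocysteine can also leave the cycle towards cysteine. There Cth, which splits cystathionine to give cysteine, stood at 79.6 ± 21.3 FPKM in FG and 303 ± 110 in SG (SD, n = 4 each), a log2 difference of 1.89 with a limma adjusted p of 0.00258. Cbs, the enzyme one step earlier, was at 116 ± 13.8 and 99.2 ± 15.7 FPKM with a limma adjusted p of 0.251, and 0.0486 with library weights.

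**Figure D4:**
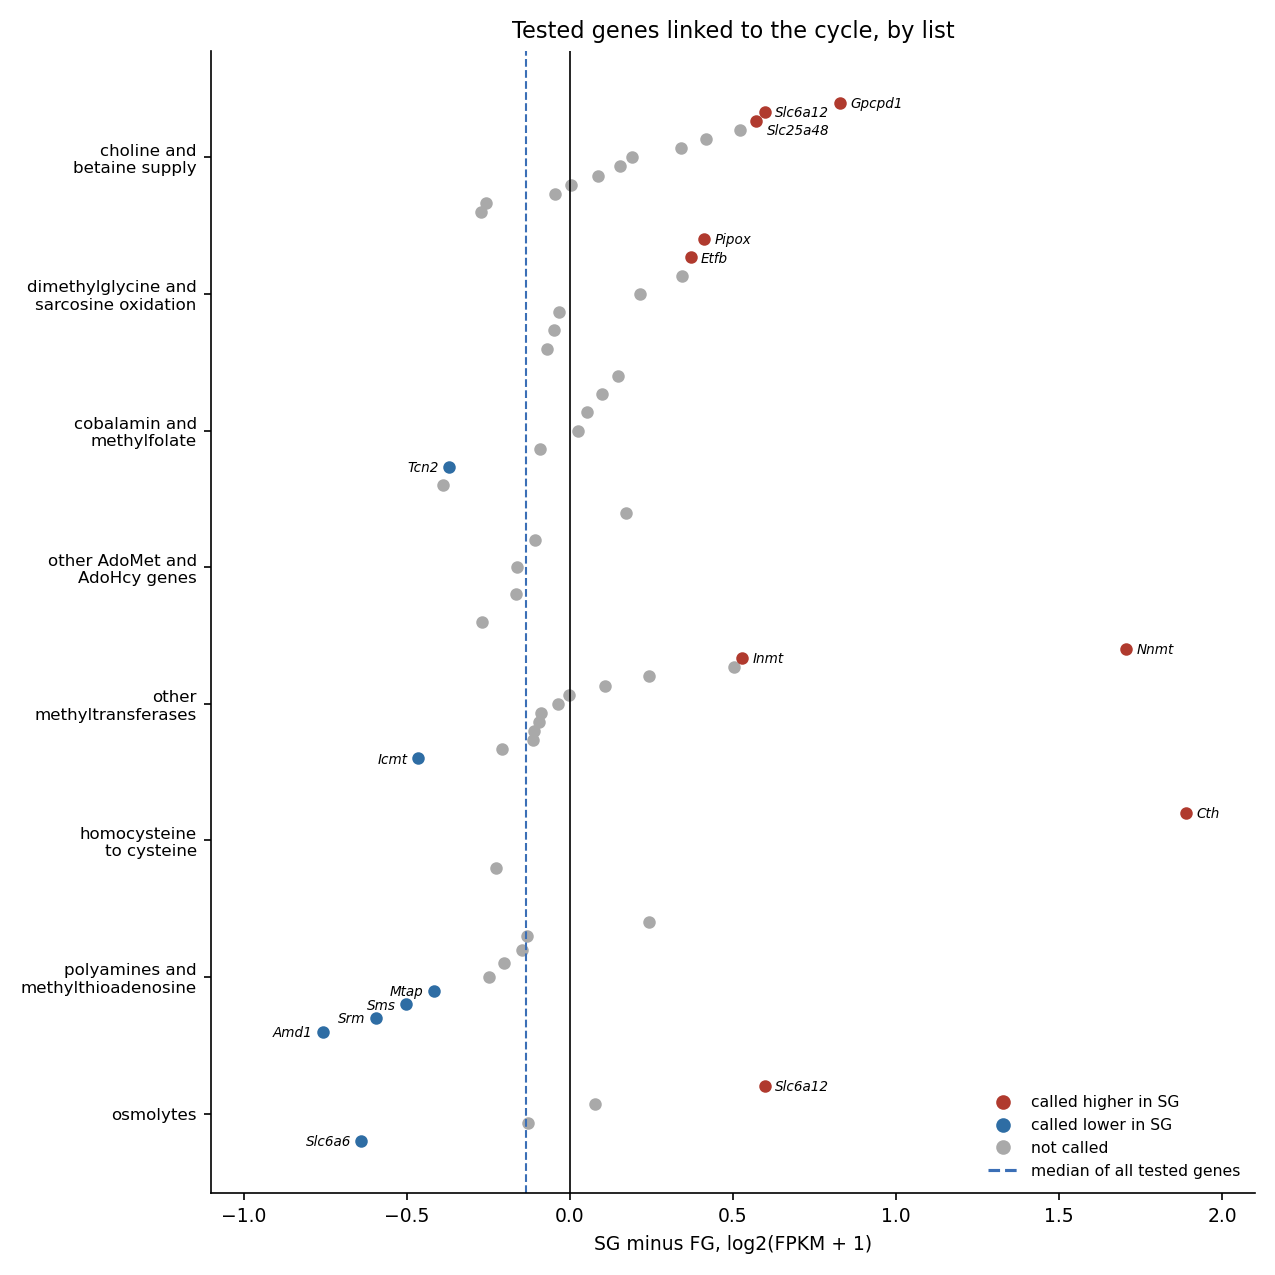
SG minus FG difference in log2(FPKM + 1) of the tested genes of the 8 linked lists whose values are given here, 1 dot per gene spread vertically within its list, with the called genes named. Cth (1.89) and Nnmt (1.71) lie farthest to the right among the genes drawn, and 4 of the 9 genes of polyamine synthesis and methylthioadenosine salvage are called lower.

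Of 14 other tested methyltransferases that use AdoMet, 2 rose and 2 fell, beside 3.73% and 15.6% of all tested genes. Most of the 14 act on small molecules. Inmt, which methylates indole amines, rose from 514 to 739 FPKM (limma adjusted p = 0.0118). Nnmt, which methylates nicotinamide, went from 7.08 ± 2.44 to 32.1 ± 30.6 FPKM (SD, n = 4 each, limma adjusted p = 0.0419). Its spread within SG was nearly as large as its mean, and the call was lost after median-ratio scaling (0.051) and on leaving out any library but SG 103 and SG 105. Icmt, which acts on proteins and methylates their prenylated ends, fell from 10.3 to 7.20 FPKM (limma adjusted p = 0.0105).

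The polyamine route takes decarboxylated AdoMet and returns methylthioadenosine. In it 0 of 9 tested genes rose, by limma before or after adjustment and by voom, and 4 fell, or 2 after median-ratio scaling. Over all tested genes 3.73% were called higher and 15.6% lower, with 5.06% lower after median-ratio scaling. Amd1, the decarboxylase of AdoMet, fell from 12.1 to 6.90 FPKM (limma adjusted p = 0.0175), and Sms, spermine synthase, from 1.42 to 0.694 FPKM (0.0197). Sms was at 1 FPKM or more in the FG libraries alone, so it entered the test only through the group where it is higher, and its limma adjusted p with no filter was 0.0495. Without Sms, 3 of 8 fell, or 1 after median-ratio scaling. Srm, spermidine synthase, was at 22.3 and 14.3 FPKM (0.0147) and Mtap, which clears methylthioadenosine, at 8.63 and 6.26 FPKM (0.0455). Median-ratio scaling moved the last 2 to 0.0605 and 0.22, past the threshold. The calls of Amd1 and Sms were also lost without FG 93 (0.0536 each), that of Sms without SG 105, and that of Mtap on leaving out any library but SG 101. With no filter Amd1 was not called (limma adjusted p = 0.0501), nor was Sms after quantile scaling (0.0589).

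Betaine also serves as an osmolyte. Of 4 tested genes of osmolyte transport and synthesis 1 rose and 1 fell, Slc6a12 as above and the taurine transporter Slc6a6, from 25.7 to 16.0 FPKM (limma adjusted p = 0.0149). A list of 4 genes is too small to set against the 3.73% and 15.6% of all tested genes.

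The genes whose 8 centred log2(FPKM + 1) values ran closest to those of Bhmt, by root-mean-square difference over the libraries, were Serpina1e (0.684), Enho (0.894), Selenbp2 (0.912), Cyp7a1 (0.945) and Agxt (1.14). Enho was below 1 FPKM in every FG library, so it entered the test only through SG. The nearest member was Gnmt at 1.52. Serpina1e, a serine protease inhibitor secreted by hepatocytes, went from 494 to 5164 FPKM. Agxt, which turns glyoxylate into glycine, rose from 39.7 to 133 FPKM (limma adjusted p = 0.00838), with its lowest value, 17.9 FPKM, in FG 93. This measure chooses genes of like size of difference, so the closeness is a description of 8 libraries.

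Total depth, as inferred from the FPKM values, was 36545128 to 41977438 fragments per library. Of the 6 hepatocyte markers all were detected, Alb at 41490 and 41909 FPKM on average, and 2 were called higher in SG, Apoa1 and Serpina1a. The Apoa1 call (limma adjusted p = 0.0447) was lost on leaving out any library. Cyp3a11 was not called (limma adjusted p = 0.0645), but was called higher after median-ratio scaling (0.0368). Of the 12 tested genes of the Kupffer cell, stellate cell and blood cell lists, limma called 0, with 0 at an unadjusted p below 0.05 and 0 by voom. Over all tested genes 3.73% were called higher and 15.6% lower. Only 3 of the 6 blood cell genes were tested. Untested S100a8, with 1 to 23 fragments per library, went from 1.18 to 0.25 FPKM without overlap (exact permutation p = 0.0286). It was called lower with no filter. The sinusoidal endothelial markers summed to 69.5 to 85.9 FPKM in FG against 52.4 to 61.8 in SG. Clec4g, with means of 51.6 in FG and 34.7 in SG, was the largest part of that sum. The others were not called, with log2 differences of -0.32 for Pecam1, -0.09 for Kdr, -0.0074 for Stab2 and 0.24 for Lyve1. The biliary markers summed to 21.9 to 27.7 against 13.0 to 19.1. Their largest part was Spp1, with means of 19.03 and 12.41 FPKM. Krt19, Krt7 and Epcam also had lower means in SG, and Sox9 a higher one. Each of these lists had 1 gene called lower, Clec4g and Spp1. Those calls were lost after median-ratio scaling, and the part of cell mixture in the differences of the members was not tested.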

How the data were processed

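Total RNA of mouse liver was enriched for mRNA and read as 150 bp pairs, per the labels' protocols. The authors deposited FPKM per gene for 21358 genes in 8 libraries; the submitters' processing notes name the tools fastp, HISAT2, HTSeq and DESeq2, with no version, and the builds GRCm38 and mm10. The members and gene lists were chosen with earlier results of these data known. Named genes were the 10 members, the neighbours of Bhmt, up to 4 called genes per linked list with the smallest p, others taken whatever their values, and the 5 profiles nearest to Bhmt; Aldh9a1, Ahcyl1, Ahcyl2, Gm4737 and Alb were added after their values were seen. A few named genes are not reported here. FPKM are not counts, so log2(FPKM + 1) of genes with at least 1 FPKM in at least 4 libraries was fitted with limma 3.58.1 in R 4.3.3 (variance trend, no covariate, two-sided, Benjamini-Hochberg over 9867 genes). The fit was tested on simulated data. Exact permutation used all 70 assignments. Fragments were recovered from FPKM steps (whole within 0.02 for 100% of genes) and totals set by 175 genes of annotated length. The fragment numbers, shares of a library and depths given above rest on these recovered fragments and totals. Among the fits they entered only voom, an alternative added after seeing the data. Sequences and positions are RefSeq's, GRCm38.p6, of which all 10 members matched and 9 had a promoter window; transcripts are GENCODE vM21's.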

Additional observations from a re-analysis of the deposited data

Results flagged for a closer look

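In 20 groups of 4 libraries (10 members in FG and in SG), gaps were taken in log2(FPKM + 1). The gap from 1 library to its nearest neighbour was compared with the whole range of the group. In 2 of them the gap exceeded the 95% critical value of Dixon's test, and chance does so in about 1 in 20 groups. Both were FG 93. Bhmt stood at 48.9 FPKM there with a gap of 0.889 of the range, and Dmgdh at 94.1 FPKM with a gap of 0.908. Without FG 93 both genes were still called higher in SG, by 3.42 and 0.77 on the log2(FPKM + 1) scale.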

How the results depend on the processing

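The 6 members called higher kept that call under every alternative to the fit, which were another pseudocount, 2 other filters, 3 scalings, rescaling without 13 mitochondrial and 10 top genes, no variance trend, library weights, voom and leaving out each library. At an adjusted p below 0.01 Bhmt2 (0.0128) dropped out, leaving 5. No paired analysis was possible because the groups share no replicate numbers. Genes called numbered 1912, and 1133 with no filter, 1044 after median-ratio, 1066 after trimmed-mean and 1078 after quantile scaling, 415 at an adjusted p below 0.01, and 834 (without FG 93) to 2363 (without SG 101) with 1 library left out. Median-ratio scaling took the share of lower calls from 80.8% to 47.8%. Linked genes called higher were 8, and 5 with no filter, 1 at 0.01 and 3 to 10 with 1 library left out; those called lower were 9, and 5, 1 and 4 to 10. The log2 ratio of Mat1a to Mat2a was 0.43, and 0.25 to 0.61 with 1 library left out. Signs turned for genes that were not called: Pemt to 0.1033 after median-ratio, 0.0948 after trimmed-mean scaling and to 0.0051 in the range of -0.15 to 0.01 with 1 library left out; Chdh to 0.0803, 0.0719 and, after quantile scaling, 0.0034; Mat2a to 0.0039 after median-ratio scaling; Mtrr to 0.0277, 0.0221 and, after quantile scaling, 0.0339. The cause was not tested.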
